A study of Mus musculus with 8 samples.

Results

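The chemokine receptors Ccr1, Ccr2, Ccr7, Ccr8, Ccr9 and Cx3cr1 were followed across the leukocytes of mouse liver metastases. They were found by symbol, and all 6 are among the 33696 genes of the expression matrices, which hold 8 other receptors of the CC and atypical families. The 6 were chosen by their UMI levels over leukocyte types and between genotypes in these libraries, so levels by cell class and genotype are given as a description, and adjusted p values of the genotype fits describe those fits and are not evidence for the choice. Clone size in T cells was read from separate receptor libraries. The metastases grew from Venus-AKTPM/LOH colorectal cancer cells injected into the spleen and were taken on day 30. Vav1CreTet2KO mice, called knockout here, lack Tet2 where Vav1-Cre, a recombinase active across blood lineages, was expressed. Tet2fl/fl mice, called control, carry the floxed gene, and the labels give no Cre for them. Live CD45-positive cells were sorted, and 2 knockout and 2 control mice each gave a 5' gene expression and a T cell receptor library, each planned for 10000 cells. The titles number them as biological replicates, without an age or a sex, and p values measure the spread between these mice.

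Chemokine receptors are G protein-coupled receptors that steer leukocytes along gradients of chemokines. Ccr1 binds Ccl3, Ccl5, Ccl6 and Ccl9 and is carried by neutrophils and macrophages. Ccr2, the receptor for Ccl2, Ccl7 and Ccl12, brings classical monocytes out of the bone marrow. Cx3cr1 binds the membrane-tethered Cx3cl1 and marks patrolling monocytes, many macrophages and effector T cells. Ccr7 follows Ccl19 and Ccl21 into lymph nodes and marks naive T cells, B cells and mature dendritic cells. Ccr8, a receptor for Ccl1 and Ccl8, is known from tumour regulatory T cells (Treg), and Ccr9, the receptor for Ccl25, from the gut, the thymus and plasmacytoid dendritic cells.

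Counted molecules (unique molecular identifiers, UMIs) summed to between 57190926 and 91789597 per expression library, and 10432 to 13083 cells per mouse were kept. Tet2, the deleted gene, lay at 37.7 and 32.4 CPM (a gene's share of all UMIs of the cells named, scaled as CPM) in the knockout mice and at 66.1 and 65.6 CPM in the control mice. It was lower in both knockout mice, and the matrices do not show which exons its reads came from. These Tet2 levels are over all kept cells, whose mix of classes differed between the genotypes as given below. Such a sum cannot tell the mix from the level per cell, and Tet2 within classes is not given here. Between 272 and 303 cell barcodes were shared by each pair of libraries. B-like cells were 4313 and 4864 cells in the knockout mice and 684 and 611 in the control mice, and monocyte/macrophage-like cells 919 and 1262 cells in the knockout mice and 6599 and 8047 in the control mice. Median depth per barcode was 3739 and 3726 UMIs in the knockout mice and 6639 and 6226 in the control mice. Classes were named from marker genes with all CC receptor genes left out of the clustering. A filter on low counts left 4 to 6 of the 6 receptors in each class tested. In each genotype fit, called means an edgeR adjusted p under 0.05, log2 changes are knockout over control and values after ± are standard errors unless SD is written. With 2 mice per group no two-sided exact permutation test could go below p = 0.33.

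Ccr1, a receptor that neutrophils carry, was at 909 and 849 CPM in knockout against 884 and 563 CPM in control mice in neutrophil-like cells. The groups overlapped there, and the fit gave 0.39 ± 0.31, adjusted p = 0.533. Leaving out the proliferating and unnamed clusters, the next classes in the order of levels were monocyte/macrophage-like cells, at 45.1 and 63.9 CPM in knockout against 167 and 238 CPM in control mice, and conventional dendritic-like cells, at 23.5 and 27.4 CPM in knockout against 61.6 and 67.3 CPM in control mice. In neither did the groups overlap, and both knockout values were lower. The dendritic class was made up of different sub-clusters in the 2 genotypes. Sub-cluster 2, led by AA467197, Fn1 and Gda, was 9 of 345 and 32 of 403 cells in the knockout mice and 107 of 183 and 89 of 149 in the control mice. Sub-cluster 1, led by Arl5c, was 80 and 125 cells in the knockout mice and 7 and 4 in the control mice, and the cDC2-like sub-cluster 3 was 83 and 113 cells in the knockout mice and 8 and 6 in the control mice. Within sub-cluster 2, Ccr1 was at 0 and 62.1 CPM in knockout against 104 and 96.6 CPM in control mice, where the 9 cells at 0 allow up to 39.2 CPM (3 counts, for counting error only). In the rest of the dendritic class it was at 23.9 and 24.4 CPM in knockout against 8.21 and 29.5 CPM in control mice, so the groups overlapped outside sub-cluster 2. That sub-cluster was set apart after its values were seen, and no test was made on it. Neutrophil-like cells also divided: cluster 21, led by Acod1 and Cxcr2, held 1011 and 973 CPM (knockout) against 972 and 955 CPM (control), and cluster 20, led by the granule genes Camp and Ngp, held 189 and 165 CPM (knockout) against 167 and 181 CPM (control). Cluster 21 was level across the 4 mice, and cluster 20 lower in each of them. Cluster 20 was 30 of 562 and 15 of 272 cells in the knockout mice and 45 of 1779 and 331 of 1457 in the control mice, so the low class value of control mouse 2 went with its many granule-rich cells. Detection was compared with every cell thinned to 1000 UMIs, leaving shallower cells out. After thinning to 1000 UMIs 50.8 and 52.6% (knockout) against 56.3 and 47.3% (control) of neutrophil-like cells had a Ccr1 UMI, and 0.0765 and 0% (knockout) against 0.182 and 0% (control) of CD8 T cells, a type not known for it. Unthinned, the shares were 83.1 and 73.9% (knockout) against 72.0 and 67.1% (control) and 0.152 and 0.260% (knockout) against 0.362 and 0.508% (control). Among neutrophil-like cells, median depth was 2572 and 2004 UMIs in the knockout mice and 1748 and 1760.0 UMIs in the control mice, and thinning kept 547 and 251 cells of the knockout mice and 1614 and 1346 of the control mice. Among CD8 T cells, median depth was 4638 and 4435 UMIs in the knockout mice and 4305 and 3883 UMIs in the control mice, and thinning kept 1308 and 1153 cells of the knockout mice and 550 and 582 of the control mice.

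**Figure D1:**
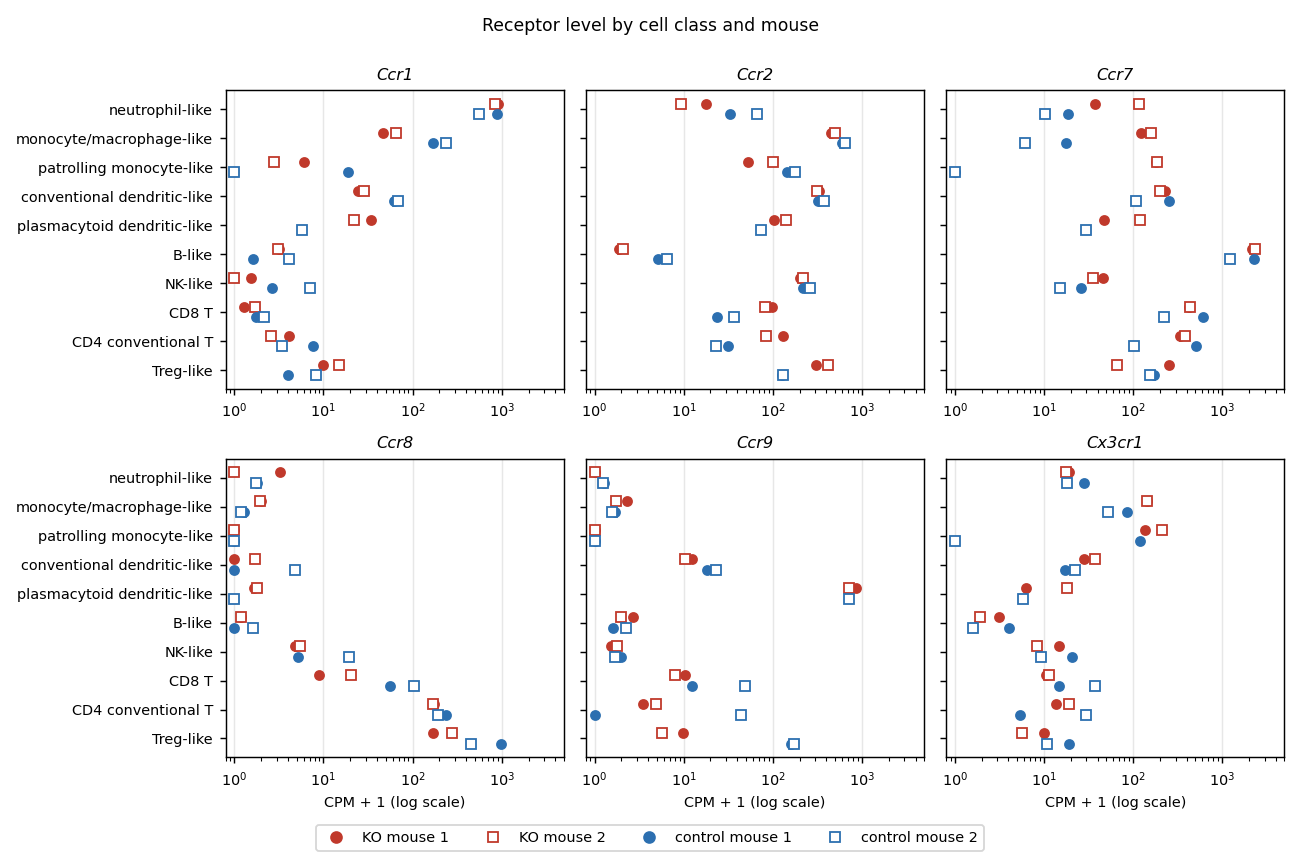
Level of each receptor in 10 cell classes (CPM + 1, log scale), with 1 point per mouse, knockout mice in red above control mice in blue, and mice with under 10 cells of a class left out. Ccr1 peaks in neutrophil-like cells, at 909 and 849 CPM in knockout against 884 and 563 CPM in control mice, Ccr7 in B-like cells, at 2188 and 2327 CPM in knockout against 2267 and 1233 CPM in control mice, and Ccr9 in plasmacytoid dendritic-like cells, where the knockout mice were at 854 and 717 CPM and control mouse 2 at 713 CPM.

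Ccr2, the monocyte recruitment receptor, was at 451 and 502 CPM in knockout against 594 and 649 CPM in control mice in monocyte/macrophage-like cells, with both knockout mice below both control mice. With the same clusters left out, next came conventional dendritic-like cells, at 330.1 and 310.2 CPM in knockout against 319.6 and 377 CPM in control mice, where the groups overlapped. Treg-like cells were at 304 and 419 CPM in knockout against 125 and 129 CPM in control mice, from 20 and 38 cells in the knockout mice and 70 and 105 in the control mice, with the knockout mice higher. Type 17-like T cells outside the CD4 and CD8 classes held 274 and 293 CPM in knockout against 409 and 342 CPM in control mice, with the knockout mice lower. NK-like cells held 204 and 219 CPM in knockout against 220.0 and 263 CPM in control mice, with both knockout mice lower by little. In CD8 T cells it was at 96.5 and 80.6 CPM in knockout against 22.9 and 35.8 CPM in control mice. CD4 conventional T cells (helper T cells outside the Treg-like sub-clusters) were at 128 and 82.1 CPM in knockout against 30.7 and 22.2 CPM in control mice. Both knockout mice were above both control mice in these T cells, the opposite order to monocyte/macrophage-like cells. B-like cells were near the bottom, at 0.859 and 1.10 CPM in knockout against 4.22 and 5.58 CPM in control mice. After thinning to 1000 UMIs 35.8 and 39.9% (knockout) against 42.4 and 44.3% (control) of monocyte/macrophage-like cells had a Ccr2 UMI, and 0.0696 and 0.103% (knockout) against 0.442 and 0.992% (control) of B-like cells, a type not known for it. Unthinned, the shares were 84.5 and 86.9% (knockout) against 92.1 and 91.5% (control) and 0.301 and 0.370% (knockout) against 1.02 and 1.47% (control). Among monocyte/macrophage-like cells, median depth was 9393 and 8039.5 UMIs in the knockout mice and 8867 and 7289 UMIs in the control mice, and thinning kept 918 and 1259 cells of the knockout mice and 6583 and 8027 of the control mice. Among B-like cells, median depth was 3080.0 and 2882 UMIs in the knockout mice and 2208 and 2430.0 UMIs in the control mice, and thinning kept 4309 and 4856 cells of the knockout mice and 679 and 605 of the control mice.

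Cx3cr1 had its highest levels among the same phagocytes. In monocyte/macrophage-like cells it was at 142 and 142 CPM in knockout against 84.8 and 51.4 CPM in control mice, with both knockout mice higher. Patrolling monocyte-like cells held 136 and 209.8 CPM in the knockout mice and 119.7 CPM in control mouse 1. The 10 such cells of control mouse 2 held no Cx3cr1 UMI, which allows up to 134 CPM (3 counts, for counting error only). The clusters of the monocyte/macrophage-like class differed among themselves. Cluster 1, led by Igf1, Pf4 and Gpnmb, held 192 and 187 CPM in knockout against 201 and 156 CPM in control mice, so the groups overlapped. Cluster 5, classical monocyte-like and led by F13a1, held 127 and 132 CPM in knockout against 83.7 and 46.7 CPM in control mice, with the knockout mice higher. Cluster 1 was 389 of 919 and 471 of 1262 cells in the knockout mice and 583 of 6599 and 438 of 8047 in the control mice, and cluster 5 was 357 of 919 and 533 of 1262 cells in the knockout mice and 1323 of 6599 and 1935 of 8047 in the control mice, so these 2 clusters held most of the class in the knockout mice, while clusters 2, 3, 5 and 7 held most of it in the control mice. The fit over the whole class gave 0.94 ± 0.23, adjusted p = 0.0406. Within single clusters it gave 0.077 (adjusted p = 0.778) in cluster 1, 1.02 (adjusted p = 0.0982) in cluster 5, 0.098 (adjusted p = 0.958) in cluster 2 and -0.55 (adjusted p = 0.241) in cluster 3, led by Arg1, so in none of the 4 clusters fitted was it called. After thinning to 1000 UMIs 12.1 and 12.2% (knockout) against 7.58 and 4.46% (control) of monocyte/macrophage-like cells had a Cx3cr1 UMI, and 0.209 and 0.124% (knockout) against 0.147 and 0% (control) of B-like cells, a type not known for it. Unthinned, the shares were 48.7 and 52.0% (knockout) against 36.9 and 21.0% (control) and 0.742 and 0.308% (knockout) against 0.731 and 0.164% (control).

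Ccr7, the lymph node homing receptor, was highest per cell in the rare mature dendritic-like cells, at 6102 and 5289 CPM over 13 and 11 cells of the knockout mice, while the control mice had 4 and 1 such cells, at 3437 and 502 CPM. B-like cells came next, at 2188 and 2327 CPM in knockout against 2267 and 1233 CPM in control mice. Control mouse 2 was low there, and 401 of its 611 B-like cells lay in cluster 14, led by Tnfrsf13c and light chain genes. In cluster 13, led by Scd1 and B3gnt7, Ccr7 was at 2561 and 2667 CPM (knockout) against 2414 and 2023 CPM (control) and in cluster 14 at 1519.8 and 1581 CPM (knockout) against 1943 and 809 CPM (control). Naive-like T cells followed. Ccr7 was at 971 and 1072 CPM (knockout) against 906 and 597 CPM (control) in the CD8 and at 1254 and 1102 CPM (knockout) against 859 and 965 CPM (control) in the CD4 sub-clusters. The unnamed CD8 sub-clusters were lower, at 37.2 and 66.1 CPM (knockout) against 124 and 145 CPM (control). After thinning to 1000 UMIs 77.5 and 77.5% (knockout) against 80.6 and 48.9% (control) of B-like cells had a Ccr7 UMI, and 1.89 and 1.46% (knockout) against 1.30 and 1.51% (control) of NK-like cells, which carry little of it. Unthinned, the shares were 92.7 and 92.5% (knockout) against 92.3 and 63.7% (control) and 4.04 and 4.13% (knockout) against 2.86 and 3.60% (control). Among NK-like cells, median depth was 4556 and 4275 UMIs in the knockout mice and 3928 and 4019 UMIs in the control mice, and thinning kept 741 and 823 cells of the knockout mice and 692 and 331 of the control mice.

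Ccr8, the Treg receptor, was highest on the mean of the mice in Treg-like cells, at 170.0 and 273 CPM in knockout against 973 and 454 CPM in control mice. The counts behind these levels were 19 and 58 UMIs in the knockout mice and 320 and 186 in the control mice. Exact 95% Poisson intervals, for counting error only, were 102 to 266 and 207 to 353 CPM in the knockout mice and 869 to 1085 and 391 to 524 CPM in the control mice. Both knockout mice were lower, but the class was too small for a fit. CD4 conventional T cells held 175 and 167 CPM in knockout against 235 and 192 CPM in control mice (-0.28 ± 0.22, adjusted p = 0.676), and in knockout mouse 1 they were not below its Treg-like cells. CD8 T cells held 7.91 and 19.2 CPM in knockout against 55.3 and 104 CPM in control mice, with the knockout mice lower (-2.51 ± 0.48, adjusted p = 0.101). B-like cells held 6 Ccr8 UMIs in the knockout and 1 in the control mice. After thinning to 1000 UMIs 20 and 18.4% (knockout) against 50.0 and 27.9% (control) of Treg-like cells had a Ccr8 UMI, and 0.0232 and 0.0206% (knockout) against 0 and 0% (control) of B-like cells, a type not known for it. Unthinned, the shares were 35.0 and 52.6% (knockout) against 71.4 and 52.4% (control) and 0.0464 and 0.0617% (knockout) against 0 and 0.164% (control). Among Treg-like cells, median depth was 5176 and 5368 UMIs in the knockout mice and 3792 and 3428 UMIs in the control mice, and thinning kept 20 and 38 cells of the knockout mice and 68 and 104 of the control mice.

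Ccr9 stood out in plasmacytoid dendritic-like cells, the interferon-producing relatives of dendritic cells, at 854 and 717 CPM in the knockout mice and 713 CPM in control mouse 2, while the 3 cells of control mouse 1 held 4 UMIs. Among T cells, Treg-like cells were at 8.95 and 4.71 CPM in knockout against 161 and 173 CPM in control mice, from 1 and 1 Ccr9 UMIs in the knockout mice and 53 and 71 in the control mice. The exact 95% Poisson intervals were 0.227 to 49.9 and 0.119 to 26.2 CPM in the knockout mice and 121 to 211 and 135 to 218 CPM in the control mice. CD8 T cells were at 9.38 and 7.04 CPM in knockout against 11.4 and 47.4 CPM in control mice, where control mouse 2 stood apart. In that mouse, 96 of 122 Ccr9 UMIs of cells with a beta chain came from 1 clone of 169 cells, out of 553 cells. After thinning to 1000 UMIs 55.1 and 45.7% (knockout) against 0 and 43.5% (control) of plasmacytoid dendritic-like cells had a Ccr9 UMI, and 0.232 and 0.0824% (knockout) against 0 and 0.165% (control) of B-like cells, a type not known for it. Unthinned, the shares were 92.9 and 93.5% (knockout) against 33.3 and 91.3% (control) and 0.603 and 0.329% (knockout) against 0.146 and 0.327% (control). Among plasmacytoid dendritic-like cells, median depth was 7557 and 6435 UMIs in the knockout mice and 5018 and 4354 UMIs in the control mice, and thinning kept 196 and 184 cells of the knockout mice and 3 and 46 of the control mice.

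The genes whose level over 12 classes was most like that of each receptor were found by Pearson's r of log2(mean CPM + 1), among 8528 genes with at least 20 CPM in some class. The points share libraries and depth, and no test was made. For Ccr1 they were Ptgs2 (0.97), 4930430E12Rik (0.95) and Il1rn (0.95), of which Ptgs2 encodes the prostaglandin enzyme COX-2 and Il1rn the interleukin-1 receptor antagonist. For Ccr8 they were Dnajb13 (0.98), Icos (0.98) and Tnfrsf4 (0.97), Icos and Tnfrsf4 being costimulatory receptors of activated T cells. Ccr2 was closest to Frmd4b (0.97), Cox5b (0.96) and Tmbim1 (0.96), Ccr7 to Prxl2a (0.87), Traf5 (0.84) and Rapgef4 (0.83), Ccr9 to Adk (0.92), Cpped1 (0.88) and Tbxa2r (0.86) and Cx3cr1 to Siva1 (0.96), Acp2 (0.93) and Ap1s2 (0.93). Among the receptors themselves, r was 0.65 for Ccr2 with Cx3cr1 and -0.58 for Ccr2 with Ccr7, the highest and the lowest of the 15 pairs.

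In monocyte/macrophage-like cells, 5 of the 6 receptors were called between genotypes, 3 higher and 2 lower, in a class where 19.4% of 14342 tested genes were. The receptors were chosen with this contrast in view, so nothing is read from the count. Ccr1 was lower (-2.01 ± 0.26, adjusted p = 0.00942). It was lower in both knockout mice in each of clusters 1, 2, 3, 5 and 7, at 46.1 and 64.7 CPM (knockout) against 109 and 147 CPM (control) in cluster 1 and 31.3 and 45.2 CPM (knockout) against 153 and 157 CPM (control) in cluster 5. Ccr2 was lower too (-0.50 ± 0.12, adjusted p = 0.0333), in each of the same clusters, and in cluster 5 lay at 503 and 567 CPM in knockout against 857 and 932 CPM in control mice. Without knockout mouse 1 the adjusted p was 0.0583 for Ccr1 and 0.269 for Ccr2, and without knockout mouse 2 it was 0.131 for Ccr2. Of clusters fitted alone, Ccr1 missed the threshold in cluster 3 (-1.04 (adjusted p = 0.221)), and Ccr2 in clusters 1, 2 and 3 (adjusted p = 0.128, 0.147 and 0.114). Cx3cr1, given above, was called with the same sign in 9 of 16 alternatives. Beside the 4 single clusters, it lost its call without either knockout mouse (adjusted p = 0.195 and 0.205) and without the filter on low counts (0.0780). Ccr8 was called (1.94 ± 0.47, adjusted p = 0.0340) on 0.998 and 0.927 CPM (knockout) against 0.283 and 0.174 CPM (control), and lost its call without any 1 of the 4 mice (adjusted p between 0.102 and 0.193). With doublets kept its change was -0.74, and DESeq2 gave an adjusted p of 0.0970. The 5 T-like markers, none of them at 0, summed to 58.9 and 44.0 CPM in knockout against 7.00 and 9.75 CPM in control mice in these cells, and their part in the Ccr8 difference was not tested.

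Ccr1 and Ccr2, which were lower together in these cells, follow each other among the 6 receptors on chromosome 9, and their start regions are shown because of it. In the GRCm39 annotation (GENCODE) Ccr1 spans chr9:123762161-123768734, minus strand, and Ccr2 chr9:123901982-123913594, plus strand, with 133 kb between them. Cx3cr1 (chr9:119877749-119898945, minus strand), Ccr8 (chr9:119921180-119924263, plus strand) and Ccr9 (chr9:123507181-123613395, plus strand) lie on the same chromosome, and Ccr7 at chr11:99035022-99045911, minus strand. All are protein-coding genes. Ccr9 overlaps 6 other annotated genes, and Cx3cr1 and Ccr7 overlap 1 antisense long noncoding RNA each, and how reads in those overlaps were assigned is not given in the sources used here. The regions run from 250 bases before to 50 after the gene start, as RefSeq gives them for GRCm38.p6, at chr9:123968643-123968942, minus strand for Ccr1 and chr9:124101933-124102232, plus strand for Ccr2, and each is written 5′ to 3′ on its gene's strand. RefSeq regions were found for 5 of the 6 receptors.
Ccr1: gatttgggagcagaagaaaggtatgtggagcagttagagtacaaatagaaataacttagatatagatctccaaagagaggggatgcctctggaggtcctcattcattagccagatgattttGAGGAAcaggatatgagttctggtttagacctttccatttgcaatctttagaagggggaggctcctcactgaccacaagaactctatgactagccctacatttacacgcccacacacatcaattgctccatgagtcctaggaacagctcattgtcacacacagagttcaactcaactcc
Ccr2: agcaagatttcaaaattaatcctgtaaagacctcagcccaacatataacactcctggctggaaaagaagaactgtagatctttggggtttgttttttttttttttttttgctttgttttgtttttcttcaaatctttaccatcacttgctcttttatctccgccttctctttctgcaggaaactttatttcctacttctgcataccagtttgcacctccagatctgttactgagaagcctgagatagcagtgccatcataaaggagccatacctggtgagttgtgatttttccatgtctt
Capitals mark the motifs found. Searched on both strands were GAGGAA, the core bound by the myeloid factor PU.1, the TATA box TATAAA, and the C/EBP motif TTGCNNAA. GAGGAA lies at bases 122 to 127 of the Ccr1 region, and none of the 3 is in the Ccr2 region. Over all 32851 such regions, 28.3% hold GAGGAA, 13.6% TATAAA and 10.8% TTGCNNAA.

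Ccr7 in monocyte/macrophage-like cells was at 123 and 157 CPM in knockout against 16.6 and 5.17 CPM in control mice, and the fit gave 3.58 ± 0.67, adjusted p = 0.0445. RNA of B-like cells moved with it. The 6 B-like markers summed to 389.7 and 451 CPM in knockout against 35.1 and 17.4 CPM in control mice in monocyte/macrophage-like cells, with none of them at 0 in any mouse. The Ccr7 UMIs per 100 B marker UMIs were 31.5 and 34.8 in knockout against 47.2 and 29.7 in control mice in monocyte/macrophage-like cells, and 30.6 and 30.7 in knockout against 30.9 and 16.6 in control mice in B-like cells. Among monocyte/macrophage-like cells with no B marker UMI, the Ccr7 CPM was 22.0 and 30.1 in knockout against 10.5 and 4.26 in control mice. Among those with 1 or more it was 284 and 405 in knockout against 68.4 and 18.6 in control mice. The order of the groups was the same in both sets of cells, with the knockout mice higher. It was called in 7 of 16 alternatives, with the same sign in all 16. The call was lost without knockout mouse 1 (adjusted p = 0.169), without knockout mouse 2 (0.190), without the filter on low counts (0.177) and with the replicate block (0.143). It was also lost with RLE size factors (0.0637), with stricter cell filters (0.0545), at resolution 2 (0.0508) and in clusters 1 (0.122) and 2 (0.445) alone. The part of B-like RNA in the Ccr7 difference was not tested.

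The neutrophil-like class changed size with the settings. Control mice had 1779 and 1457 such cells, but 539 and 630 with doublets kept and 714 and 665 at resolution 2. Knockout mice had 562 and 272, against 529 and 217 with doublets kept and 561 and 234 at resolution 2. Neutrophil-like cells had 1 of 4 tested receptors called, higher, against 6.11% of all genes tested there. It was Ccr7, at 36.0 and 116 CPM in knockout against 17.5 and 9.20 CPM in control mice (2.52 ± 0.54, adjusted p = 0.0363). The B-like markers, none of them at 0, summed to 177 and 426 CPM in knockout against 50.8 and 24.4 CPM in control mice there, and Ccr7 per 100 of their UMIs was 20.4 and 27.3 in knockout against 34.4 and 37.8 in control mice. Of the Ccr7 UMIs of the knockout mice, 60 of 65 and 75 of 83 came from the 52 and 24 cells with a B marker UMI. The other 510 and 248 neutrophil-like cells of the knockout mice were at 3.18 and 13.4 CPM, against 1.67 and 1.02 CPM in those of the control mice, with the knockout mice still higher on 5 and 8 UMIs in the knockout and 6 and 4 in the control mice. The markers' part in the difference was not tested. Ccr2 missed the threshold (-1.74 ± 0.46, adjusted p = 0.0522). In conventional dendritic-like cells 1 of 5 was called, lower, against 8.59%. It was Ccr1, at 23.5 and 27.4 CPM in knockout against 61.6 and 67.3 CPM in control mice (-1.27 ± 0.18, adjusted p = 0.00381), and it was called in all 13 alternatives with the same sign. None of them left out sub-cluster 2, outside which the levels overlapped as given above, and the part of that sub-cluster in the call was not tested. Cx3cr1 (0.86 ± 0.25, adjusted p = 0.0618) and Ccr9 (-0.82 ± 0.27, adjusted p = 0.0935) missed it.

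**Figure D2:**
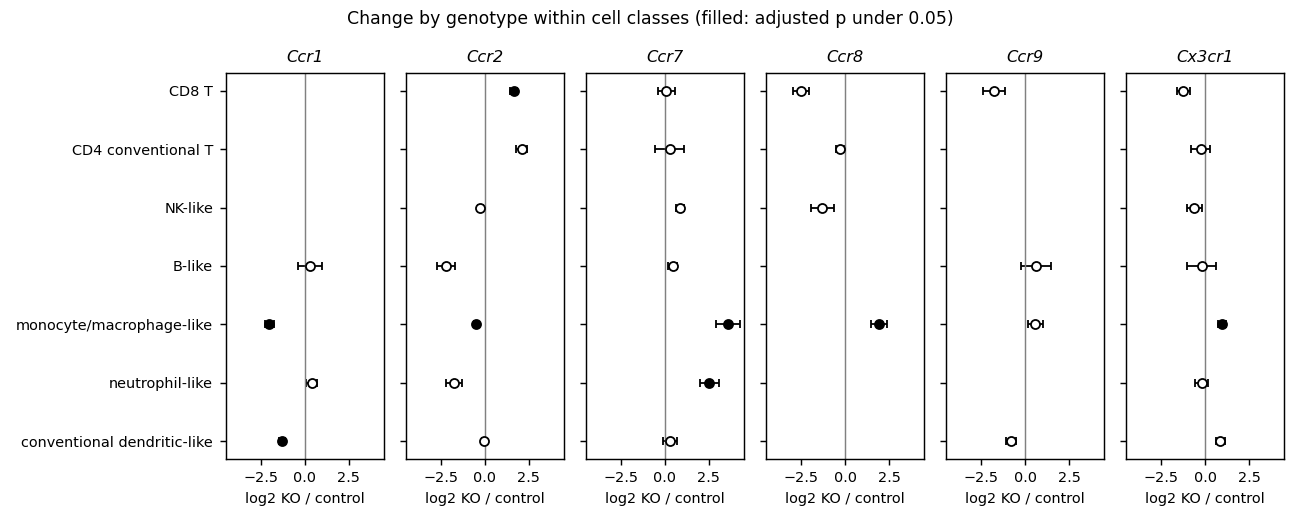
Log2 change of each receptor, knockout over control, in each of 7 classes (points, with standard errors as bars), filled where the edgeR adjusted p was under 0.05 and absent where the gene was not tested. Ccr2 was higher in CD8 T cells (1.65 ± 0.21) and lower in monocyte/macrophage-like cells (-0.50 ± 0.12), and Ccr1 was lower in monocyte/macrophage-like (-2.01 ± 0.26) and conventional dendritic-like cells (-1.27 ± 0.18).

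Among T cells the call fell on Ccr2. In CD8 T cells 1 of 5 tested receptors was called, higher, against 1.29% of all genes tested there, and Ccr2 changed by 1.65 ± 0.21, adjusted p = 0.0202. The sub-clusters differed in it. In naive-like sub-clusters Ccr2 was at 12.97 and 8.20 CPM in knockout against 7.23 and 14.7 CPM in control mice and the fit gave 0.23 (adjusted p = 0.912), and in the others it gave 1.72 (adjusted p = 0.000368). The unnamed sub-clusters, which held most CD8 T cells of the knockout mice, were at 159 and 125 CPM in knockout against 58.4 and 44.1 CPM in control mice. Exhausted-like sub-clusters, most of them in control mouse 2, held 153 and 52.3 CPM in knockout against 15.4 and 42.6 CPM in control mice. Of the 9 monocyte/macrophage-like markers the summed level in CD8 T cells was 701 and 657 CPM in knockout against 633 and 576 CPM in control mice. In CD4 conventional T cells the same sum was 109 and 73.5 CPM in knockout against 116 and 174 CPM in control mice. Ly6c2, among the 9 markers, was also a leading gene of an unnamed T sub-cluster, and the sums are not split by marker here. The part of these markers in Ccr2 was not tested. In CD4 conventional T cells 0 of 4 tested receptors were called, against 0.0386%. At an unadjusted p under 0.05 there was 1, Ccr2, at 2.08 ± 0.34, adjusted p = 0.155, and DESeq2 gave 2.05 (adjusted p = 0.0284). In NK-like and B-like cells 0 of 4 and 0 of 5 were called, against 4.13% and 0.175% of genes. An unadjusted p under 0.05 was reached by Ccr7 in NK-like cells (0.85 ± 0.25, adjusted p = 0.0776). There the 6 B-like markers summed to 79.1 and 88.4 CPM in knockout against 21.8 and 46.4 CPM in control mice, with 2 of them at 0 in control mouse 2. Among NK-like cells with no B marker UMI, Ccr7 was at 21.2 and 10.5 CPM in knockout against 10.3 and 12.3 CPM in control mice, and the groups overlapped. It was also reached by Ccr2 in B-like cells (-2.22 ± 0.50, adjusted p = 0.186). The 9 monocyte/macrophage-like markers, none at 0, summed to 35.4 and 50.3 CPM in knockout against 143 and 241 CPM in control mice in B-like cells. Ccr2 per 100 of their UMIs was 2.43 and 2.18 in knockout against 2.94 and 2.31 in control mice in B-like cells, and 1.87 and 2.16 in knockout against 3.003 and 2.89 in control mice in monocyte/macrophage-like cells. The part of these markers in either difference was not tested.

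Over whole libraries, Ccr7 was higher and Ccr1 and Ccr2 lower in the knockout mice, by more than at a mix of classes common to the 4 mice. A sum over a library cannot tell fewer cells of a type from less RNA per cell, so both values are given. Ccr7 over all kept cells was at 760.5 and 855 CPM in knockout against 96.5 and 43.1 CPM in control mice, and with the common mix at 475 and 527 CPM in knockout against 440.0 and 227 CPM in control mice. Ccr1 was at 51.2 and 30.9 CPM in knockout against 171 and 215 CPM in control mice, and with the common mix at 61.5 and 63.4 CPM in knockout against 121 and 145 CPM in control mice. Ccr2 was at 159.6 and 177 CPM in knockout against 481 and 535 CPM in control mice, and with the common mix at 267 and 287 CPM in knockout against 338 and 378 CPM in control mice. For these 3 the order of the groups was the same under both mixes, with smaller gaps under the common one. Cx3cr1 turned round: it was at 36.6 and 40.01 CPM in knockout against 69.9 and 43.2 CPM in control mice, and with the common mix at 73.8 and 74.6 CPM in knockout against 50.1 and 32.7 CPM in control mice. Ccr8 overlapped at 11.7 and 15.7 CPM in knockout against 14.1 and 12.3 CPM in control mice, and separated with the common mix, at 8.54 and 11.1 CPM in knockout against 25.7 and 23.4 CPM in control mice. Ccr9 did the reverse. It was at 27.3 and 19.5 CPM in knockout against 3.36 and 7.05 CPM in control mice. With the common mix it was at 14.2 and 11.9 CPM in knockout against 8.68 and 19.5 CPM in control mice. The 8.68 CPM of control mouse 1 uses the level of its 3 plasmacytoid dendritic-like cells, the class where Ccr9 stood out, so this overlap rests on few cells.

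The classes that held a receptor's UMIs differed between the genotypes. B-like cells held 80.0% and 80.0% of the Ccr7 UMIs of the knockout mice and 45.8% and 53.5% of those of the control mice. Monocyte/macrophage-like cells held 46.9% and 54.6% of the Ccr2 UMIs in the knockout and 92.4% and 88.7% in the control mice. Of the Ccr1 UMIs they held 14.6% and 39.9% in the knockout and 73.4% and 81.1% in the control mice. Plasmacytoid dendritic-like cells held 86.6% and 83.5% of the Ccr9 UMIs in the knockout mice and 1.40% and 24.3% in the control mice.

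**Figure D3:**
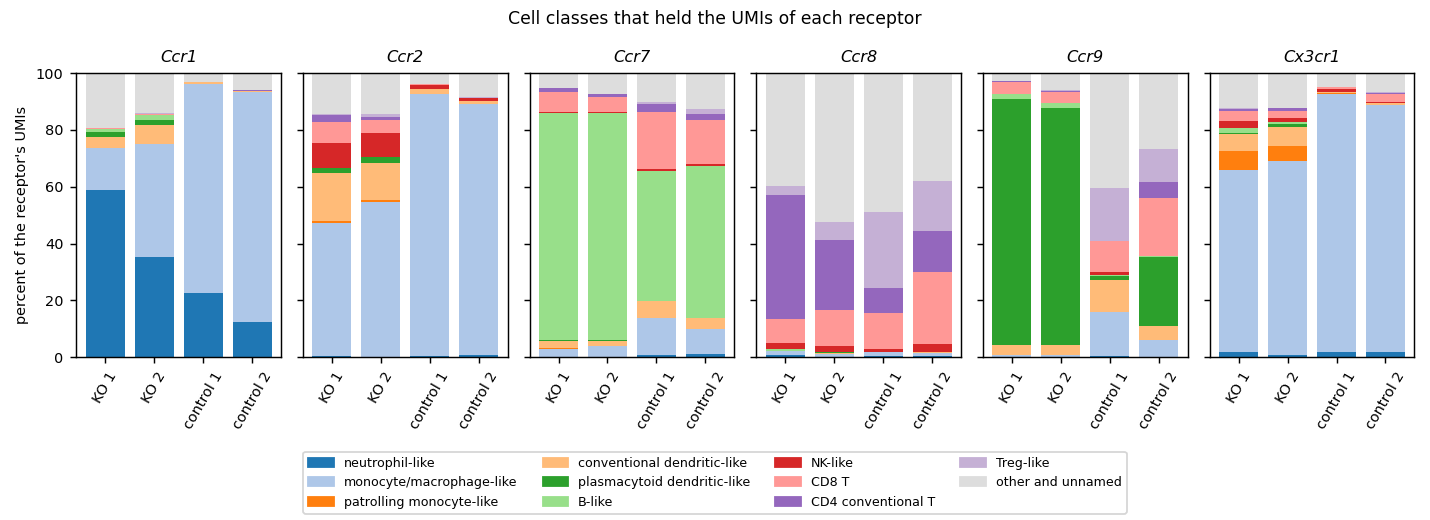
Percent of each receptor's UMIs (vertical axis) that came from each cell class, with 1 bar per mouse, knockout mice left of control mice. B-like cells hold 80.0% and 80.0% of Ccr7 UMIs in knockout mice, and monocyte/macrophage-like cells 92.4% and 88.7% of Ccr2 UMIs in control mice.

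**Figure D4:**
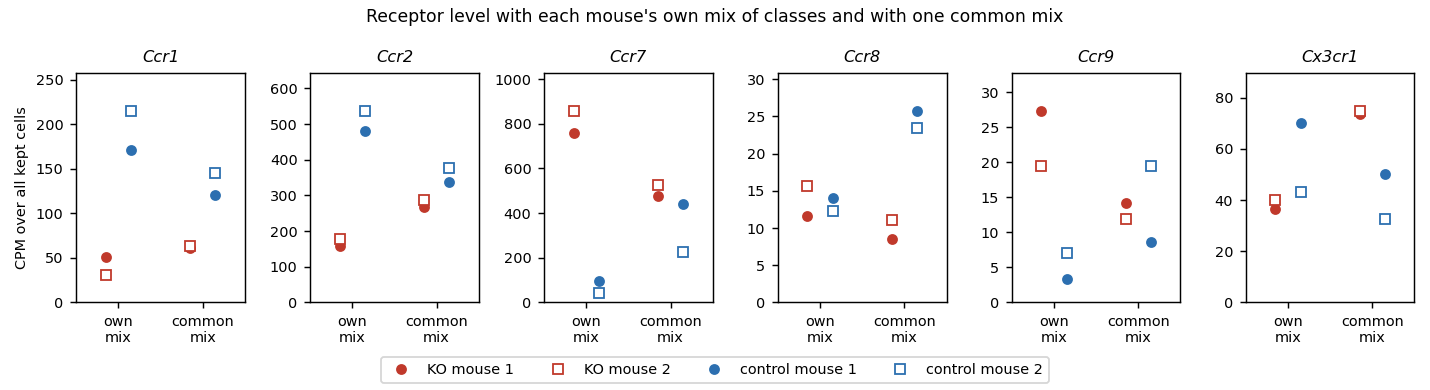
Level of each receptor over all kept cells (CPM, linear axis), with each mouse's own mix of classes and with the mean mix of the 4 mice, 1 point per mouse, knockout left of control. The order of the groups turns round for Cx3cr1, whose mean is 38.3 CPM in knockout against 56.5 CPM in control mice with the own mix and 74.2 CPM in knockout against 41.4 CPM in control mice with the common mix.

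Clone size was not used to choose the receptors, but the UMIs compared are those of the same 4 expression libraries, and the compared cells differ widely in type, so the test is not independent of the choice. CD8 T cells sharing a productive beta chain with another CD8 T cell of the mouse (expanded clones) were compared with cells whose chain was seen once, with mouse as a block. Expanded clones held 710, 586, 90 and 315 cells in the 2 knockout and then the 2 control mice, and single-cell clones 470, 441, 417 and 238. In that order of mice, Ccr8 was at 13.6, 33.6, 139 and 132 CPM in expanded clones against 2.24, 6.25, 36.9 and 71.7 CPM in single-cell clones. It was higher in expanded clones in 4 of 4 mice and rose by 1.43 ± 0.22, adjusted p = 0.000637 by edgeR's quasi-likelihood test. Of 5 tested receptors it was the 1 called, against 21.6% of all genes tested. Naive-like sub-clusters held 1.27%, 0.512%, 3.33% and 1.59% of expanded and 82.8%, 68.0%, 69.8% and 61.3% of single cells. Outside them Ccr8 was at 13.8, 33.8, 146 and 134 CPM in expanded clones against 14.3, 20.4, 109 and 192 CPM in single-cell clones, and the change was 0.051 (adjusted p = 0.968), so among cells that were not naive-like no rise was called. Without the mouse block the change over all CD8 T cells was 1.27 (adjusted p = 0.581).

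Ccr2 was at 164, 132, 24.5 and 39.4 CPM in expanded clones against 25.6, 26.8, 22.9 and 24.2 CPM in single-cell clones. The gap was wide in both knockout mice and small in both control mice, and over the 4 mice the change was 1.65 ± 0.46, adjusted p = 0.0899. The control values rest on few UMIs or clones. Expanded cells of control mouse 1 held 10 Ccr2 UMIs. In control mouse 2, the clone of 169 cells described above held 30 of 81 Ccr2, 71 of 262 Ccr8 and 28 of 90 Cx3cr1 UMIs of cells with a beta chain. The term for the difference of the clone size effect between genotypes was called for Ccr2 (1.93 ± 0.31, adjusted p = 0.00180), the 1 of 5 receptors called, against 1.26% of genes. Part of this term is the genotype contrast in expanded cells, which the choice of receptors had used. Outside naive-like sub-clusters Ccr2 was at 166, 132, 25.7 and 39.9 CPM in expanded clones against 93.8, 68.2, 52.4 and 41.8 CPM in single-cell clones, higher in expanded clones in the knockout mice and lower in the control mice. There the change over the 4 mice was 0.47 (adjusted p = 0.491) and the term 1.33 (adjusted p = 0.143). Cx3cr1 was at 16.6, 17.2, 39.2 and 38.0 CPM in expanded clones against 1.92, 4.41, 7.48 and 35.4 CPM in single-cell clones, higher in expanded clones in 4 of 4 mice, and missed the threshold (1.31 ± 0.44, adjusted p = 0.0844). Outside naive-like sub-clusters the order turned in control mouse 2, at 38.5 CPM in expanded against 94.7 CPM in single-cell clones, and the change was 0.16 (adjusted p = 0.975). Ccr7 was lower in expanded clones in 4 of 4 mice, at 16.9, 55.7, 255 and 75.3 CPM in expanded clones against 845, 814, 665 and 449 CPM in single-cell clones, and missed it too (-3.59 ± 0.94, adjusted p = 0.102). Outside naive-like sub-clusters the order turned in control mouse 1, at 262 CPM in expanded against 204 CPM in single-cell clones, and the change was -1.59 (adjusted p = 0.618). Ccr9 was at 5.64, 1.23, 9.79 and 77.4 CPM in expanded clones against 12.5, 12.5, 11.7 and 10.1 CPM in single-cell clones, where the expanded cells of control mouse 2 included the clone described above (-0.16 ± 1.16, adjusted p = 0.959).

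**Figure D5:**
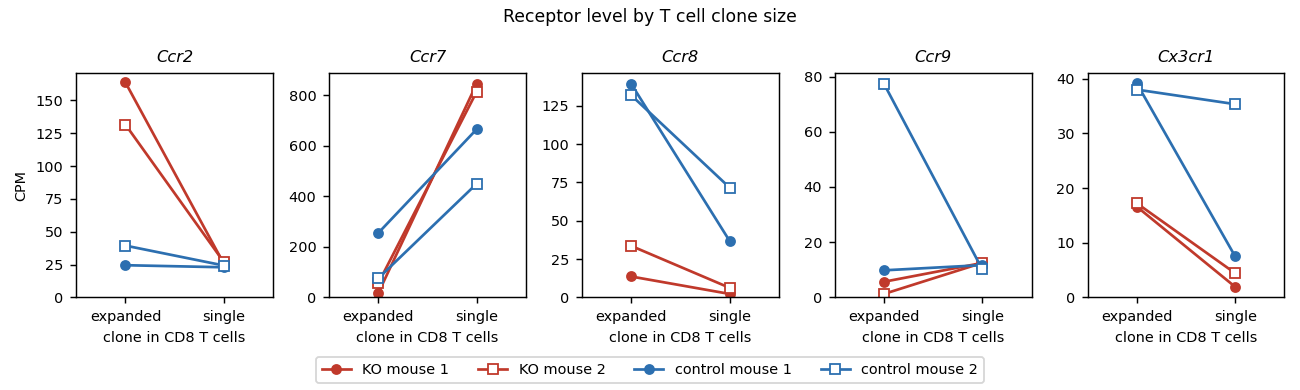
Receptor level (CPM, linear axis) in expanded and in single-cell clones of CD8 T cells, with 1 line per mouse. Ccr8 is higher in expanded clones in all 4 mice, and Ccr2 is at 164 and 132 CPM in expanded clones of the knockout mice and at 24.5 and 39.4 CPM in those of the control mice.

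Of the 13 ligands of these receptors, 3 inflammatory chemokines rose with clone size in CD8 T cells: 5 of 13 were tested, 3 rose and 0 fell (median log2 change 1.51, with 0.0097 over all genes, of which 21.6% were called). Ccl3, a ligand of Ccr1, rose by 2.34 ± 0.22, at 627, 505, 981 and 557 CPM in expanded clones against 68.7, 146, 158 and 73.7 CPM in single-cell clones. Ccl5, another Ccr1 ligand, rose by 1.51 ± 0.21, at 19558 ± 4048 (knockout) and 11496 ± 1848 CPM (control) in expanded clones against 4161 ± 666 (knockout) and 4617 ± 1111 CPM (control) in single-cell clones (SD, n = 2 each). Ccl1, the ligand of Ccr8, rose by 4.34 ± 0.52, at 3.65, 62.7, 3328 and 963 CPM in expanded clones against 0.320, 0.368, 86.0 and 86.9 CPM in single-cell clones, so its level in expanded clones differed widely between the mice. Outside naive-like sub-clusters Ccl5 was still called (0.66 ± 0.072), while Ccl3 (0.83 ± 0.27, adjusted p = 0.335) and Ccl1 (3.07 ± 0.52, adjusted p = 0.131) were not. There Ccl3 was at 568 ± 92.5 (knockout) and 795 ± 327 CPM (control) in expanded clones against 425 ± 47.2 (knockout) and 313 ± 178 CPM (control) in single-cell clones (SD, n = 2 each). In monocyte/macrophage-like cells, 10 of 13 were tested, 0 rose and 2 fell (median log2 change -0.99, with 0.019 over all genes, of which 19.4% were called) between genotypes. The 2 called of 10 were a share near that of all genes. They were the Ccr1 ligands Ccl9 (-1.04 ± 0.10, 261 ± 1.72 CPM in knockout and 493 ± 11.9 CPM in control mice, SD, n = 2 each) and Ccl6 (-0.95 ± 0.12), beside the cluster shift and marker sums given above for these cells. In cluster 5 alone neither was called, at -0.14 ± 0.13 for Ccl9 and 0.091 ± 0.10 for Ccl6. In conventional dendritic-like cells, 7 of 13 were tested, 1 rose and 1 fell (median log2 change 0.45, with 0.0099 over all genes, of which 8.59% were called), Ccl5 rising by 3.49 ± 0.54 and Ccl9 falling (-0.92 ± 0.21), beside the sub-cluster shift given above. Most Ccl5 UMIs came from the mature dendritic-like sub-cluster 5, whose 13 and 11 cells in the knockout mice held 2468 and 1277 of them and whose 4 and 1 cells in the control mice held 49 and 14. In the class without sub-clusters 2 and 5, Ccl5 was at 96.4 and 35.8 CPM in knockout against 74.6 and 31.4 CPM in control mice, and the groups overlapped. Outside sub-cluster 2 Ccl9 was at 50.8 and 76.7 CPM in knockout against 23.5 and 31.2 CPM in control mice, the opposite order to that of the whole class. In NK-like cells 6 of 13 were tested, 0 rose and 1 fell (median log2 change -0.23, with -0.00053 over all genes, of which 4.13% were called), the called one being Ccl6 (-1.83 ± 0.36). Cluster 17 was 313 of 742 and 354 of 823 NK-like cells in the knockout mice and 633 of 699 and 243 of 333 in the control mice, and the 5 T-like markers, none at 0, summed to 629 and 618 CPM in knockout against 147 and 175 CPM in control mice. Their part was not tested. Within cluster 17 Ccl6 was at -0.98 ± 0.43 (adjusted p = 0.379) and within cluster 11 at -2.87 ± 0.82 (adjusted p = 0.0581). In CD8 T, CD4 conventional T, B-like and neutrophil-like cells 0 of 5, 4, 5 and 6 tested ligands were called by edgeR, as were 0 of 5 for the clone size by genotype term.

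Of the 8 other CC and atypical receptors, 4 of 8 were tested, 1 rose and 1 fell (median log2 change 0.80, with 0.019 over all genes, of which 19.4% were called) in monocyte/macrophage-like cells. Ccr6, a receptor of B cells and type 17 T cells, rose by 3.06 ± 0.32 there, beside the B-like marker sums given above. In conventional dendritic-like cells 2 of 8 were tested, 0 rose and 2 fell (median log2 change -1.15, with 0.0099 over all genes, of which 8.59% were called), among them Ccrl2, an atypical receptor that binds chemerin, by -1.23 ± 0.14. Outside sub-cluster 2 Ccrl2 was at 107 and 107 CPM in knockout against 149 and 55.5 CPM in control mice, and the groups overlapped. With clone size 3 of 8 were tested, 1 rose and 0 fell (median log2 change 0.47, with 0.0097 over all genes, of which 21.6% were called), and in the other 5 classes and for the interaction term 0 were called.

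Of 18 genes of receptor signalling, with clone size 16 of 18 were tested, 5 rose and 3 fell (median log2 change 0.10, with 0.0097 over all genes, of which 21.6% were called). Rgs1 and Rgs2, which shorten G protein signals, rose by 1.36 ± 0.13 and 1.05 ± 0.13, and the G protein subunit Gng2 by 1.22 ± 0.11, while Rgs10 fell (-1.46 ± 0.11). Outside naive-like sub-clusters Gng2 was called (0.57 ± 0.11) and Rgs1, Rgs2 and Rgs10 were not (adjusted p = 0.514, 0.149 and 0.132). Between genotypes in monocyte/macrophage-like cells 18 of 18 were tested, 1 rose and 4 fell (median log2 change -0.10, with 0.019 over all genes, of which 19.4% were called). The receptor kinase Grk3 rose by 1.17 ± 0.13, and the G protein subunits Gnb1 (-0.61 ± 0.10) and Gnai2 (-0.53 ± 0.10) and the kinase subunit Pik3cg (-0.60 ± 0.13) fell. The 5 called of 18 stand beside the cluster shift and the B-like and T-like marker sums given above for these cells, whose part was not tested. Fitted within clusters 1, 2, 3 and 5, Grk3 was called in clusters 2, 3 and 5 and not in cluster 1 (0.34 ± 0.19, adjusted p = 0.306), Gnb1 in clusters 1 and 2, Gnai2 in cluster 5 and Pik3cg in none. In conventional dendritic-like cells 18 of 18 were tested, 2 rose and 2 fell (median log2 change -0.065, with 0.0099 over all genes, of which 8.59% were called) beside the sub-cluster shift given above, in neutrophil-like cells 18 of 18 were tested, 1 rose and 1 fell (median log2 change 0.043, with -0.075 over all genes, of which 6.11% were called) and in NK-like cells 17 of 18 were tested, 1 rose and 1 fell (median log2 change -0.078, with -0.00053 over all genes, of which 4.13% were called). In CD8 T, CD4 conventional T and B-like cells and for the interaction term 0 were called.

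Of 7 genes of lymph node homing and tissue exit, which act beside Ccr7, with clone size 7 of 7 were tested, 1 rose and 4 fell (median log2 change -2.59, with 0.0097 over all genes, of which 21.6% were called). The exit receptor S1pr1 fell (-3.24 ± 0.17), at 7.60 to 22.0 CPM in expanded clones of the 4 mice against 90.2 to 127 CPM in their single-cell clones, and so did the naive T cell factor Lef1 (-3.55 ± 0.12) and Klf2 (-2.74 ± 0.22), a transcription factor that drives S1pr1. The integrin Itga4 rose (0.85 ± 0.11), beside the naive-like shares given above. Outside naive-like sub-clusters S1pr1 (-2.06 ± 0.25), Lef1 (-1.48 ± 0.16) and Klf2 (-1.25 ± 0.19) were called and Itga4 was not (0.26 ± 0.12, adjusted p = 0.346). Between genotypes in CD8 T cells 7 of 7 were tested, 1 rose and 0 fell, against 1.29% of all genes called, and it was Il7r (1.59 ± 0.22). For the clone size by genotype term 7 of 7 were tested, 1 rose and 0 fell, against 1.26%, again Il7r (2.28 ± 0.18). The CD8 T sub-clusters differed between the mice as given above, and their part in it was not tested. In monocyte/macrophage-like cells 7 of 7 were tested, 5 rose and 0 fell (median log2 change 1.14, with 0.019 over all genes, of which 19.4% were called), led by S1pr1 (2.87 ± 0.32) and Tcf7 (3.24 ± 0.41). The B-like and T-like marker sums given above for these cells moved with them, and their part in it was not tested. In conventional dendritic-like cells 5 of 7 were tested, 1 rose and 1 fell (median log2 change -0.021, with 0.0099 over all genes, of which 8.59% were called) beside the sub-cluster shift given above, and in NK-like cells 7 of 7 were tested, 0 rose and 1 fell (median log2 change -0.32, with -0.00053 over all genes, of which 4.13% were called). In CD4 conventional T, B-like and neutrophil-like cells 0 were called.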

How the data were processed

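Leukocytes of 2 knockout and 2 control mice were used, each with an expression and a T cell receptor library. The submitters' processing notes name Cell Ranger 8.0.1, Seurat 5.0.1, R 4.4.1 and the build GRCm39. The deposited matrices give whole UMI counts for each gene in each barcode, and the deposited contig tables give counts of reads and UMIs. The settings of cell calling are not given in the sources used here.

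Barcodes under 200 genes or over 10% mitochondrial UMIs were left out, as were doublets called by Scrublet (309 and 471 in knockout, 447 and 515 in control mice). Cells were clustered with scanpy 1.11.5 (2000 variable genes without CC receptors, 30 components, 20 neighbours, Leiden resolution 1). Clusters needed 3 markers at fold 2 in 10% of cells, and T-like and dendritic clusters were split again. Outside NK-like and mixed sub-clusters, T-like cells were called CD8 with UMIs of Cd8a or Cd8b1 and none of Cd4. With the reverse they were called CD4, and those in the Treg-like sub-cluster formed the Treg-like class. UMIs were summed per mouse and class (at least 30 cells per mouse) and tested by edgeR 4.0.16 quasi-likelihood (filterByExpr, TMM, two-sided, Benjamini-Hochberg over all genes of the fit), in R 4.3.3; DESeq2 1.42.0 was an alternative. Genes named are the 6 receptors and, from 4 lists of ligands, other receptors, signalling and homing genes, called genes (at most 4 per list and class, by p); for each receptor the 3 genes most like it over classes. The receptors and lists were chosen with earlier results of these data known, and 1 gene of the homing list is not reported here. The fits were also run on simulated counts with the same spread for every gene, which cannot show how they behave on the spread of these mice.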

Additional observations from a re-analysis of the deposited data

Results flagged for a closer look

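Ccr2 moved in opposite directions between genotypes in different classes. It was higher in both knockout mice in CD4 conventional T cells, at 128 and 82.1 CPM in knockout against 30.7 and 22.2 CPM in control mice, a log2 change of 2.08 ± 0.34, adjusted p = 0.155. It was lower in both in neutrophil-like cells, at 16.6 and 8.41 CPM in knockout against 32.2 and 65.4 CPM in control mice, a log2 change of -1.74 ± 0.46, adjusted p = 0.0522. These levels came from 30 and 6 Ccr2 UMIs in the knockout mice and 120 and 263 in the control mice. The 9 monocyte/macrophage-like markers summed to 4501 and 3824 CPM in knockout against 2792 and 8315 CPM in control mice there. Their part in the Ccr2 difference was not tested. The difference between those classes was not tested, and neither change passed the threshold alone.

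Cx3cr1 was likewise higher in both knockout mice in monocyte/macrophage-like cells (0.94 ± 0.23, adjusted p = 0.0406) and lower in both in CD8 T cells (-1.24 ± 0.39, adjusted p = 0.183), at 9.67 and 10.5 CPM in knockout against 13.6 and 36.2 CPM in control mice. That difference was not tested either.

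The clone size effect on Ccr2 in CD8 T cells differed between genotypes by 1.93 ± 0.31, adjusted p = 0.00180 on the log2 scale. It kept its direction in 9 of 9 alternatives, with values from 1.33 to 2.40. The lowest was that outside naive-like sub-clusters, where the call was lost (edgeR adjusted p = 0.143). Expanded cells of control mouse 1 held 10 Ccr2 UMIs, and those of control mouse 2 included the large clone described above. Part of the term is the genotype contrast in expanded cells, which the choice of receptors had used.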

How the results depend on the processing

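Recomputed under other settings, 376 receptor values kept their direction and side of the threshold, 20 lost a call, 53 gained one and 21 changed sign. Under settings chosen after seeing the data, which used parts of a class or cells outside naive-like sub-clusters, the counts were 33, 12, 6 and 9. The cause of each shift was not tested.

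The cells in a class also moved with the settings, as given above for neutrophil-like cells. The NK-like class had 742 and 823 cells in knockout and 699 and 333 in control mice. With doublets kept it had 1058 and 1214 in knockout and 780 and 408 in control mice. Genes called between genotypes without a filter on low counts were 989 in CD8 T, 301 in CD4 conventional T, 957 in NK-like, 69 in B-like, 1074 in neutrophil-like and 1537 in conventional dendritic-like cells, against 136, 3, 420, 20, 535 and 854 with it. With DESeq2 they were 229, 11, 212, 77 and 489 in CD8 T, CD4 conventional T, NK-like, B-like and conventional dendritic-like cells. With doublets kept they were 11 in B-like and 179 in neutrophil-like cells, with stricter cell filters 191 and at resolution 2 219 in neutrophil-like cells. In parts of a class they were 60 in naive-like and 938 in other CD8 T cells, 97 and 241 in NK-like clusters 17 and 11, 40 in B-like cluster 14, 715, 1588, 479 and 996 in monocyte/macrophage-like clusters 3, 5, 2 and 1 (all: 2781), 1275 in neutrophil-like cluster 21 and 377 in conventional dendritic-like cluster 15. Without each mouse in turn they ranged over 46 to 1712, 7 to 986, 77 to 1066, 50 to 1288, 467 to 3564, 46 to 1368 and 616 to 1344 in CD8 T, CD4 conventional T, NK-like, B-like, monocyte/macrophage-like, neutrophil-like and conventional dendritic-like cells.

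For clone size, 2177 genes were called, 250 outside naive-like sub-clusters, 982 without the mouse block and 1396 to 2208 without each mouse. For the clone size by genotype term, 127 were called, 228 without the filter, 18 outside naive-like sub-clusters and 97 to 334 without each mouse.

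Replicate numbers were not taken as a pairing, since the titles state none. Same-numbered mice correlated in their deviations at r between -0.058 and 0.25 over 7 classes. With 2 pairs, r cannot tell whether same-numbered mice share a batch. With the replicate block, 245 genes were called in CD8 T, 18 in CD4 conventional T, 670 in NK-like and 310 in B-like cells, against 136, 3, 420 and 20 without it. Under the replicate block Ccr7 had an adjusted p of 0.143 in monocyte/macrophage-like and 0.0729 in neutrophil-like cells.

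Log2 changes of receptors that had not been called changed sign in these cases. Ccr7 was at -1.19 in CD8 T and -1.70 in CD4 conventional T cells that were not naive-like, and Ccr9 at 0.71 in naive-like CD8 T cells. Ccr2 was at 0.30 in NK-like cluster 11 and 0.21 in conventional dendritic-like cluster 15, where Ccr9 was at 0.0019, and Cx3cr1 at 0.15 in NK-like cluster 17. In B-like cells Ccr1 was at -0.20 with stricter cell filters and -0.26 with receptors kept in clustering, and Cx3cr1 at 0.014 with doublets kept and 0.15 with stricter filters. In neutrophil-like cells Cx3cr1 was at 0.050 with doublets kept and 0.95 with receptors kept in clustering, and in monocyte/macrophage-like cells Ccr9 was at -0.065 with doublets kept. For clone size Ccr9 was at 1.28 outside naive-like sub-clusters and 0.66 without the mouse block. Of called receptors, Ccr8 in monocyte/macrophage-like cells was at -0.74 with doublets kept, and Cx3cr1 there at -0.55 in cluster 3.

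Without each mouse in turn, the log2 change ranged over -0.49 to 1.06 for Ccr7 in CD8 T, -0.53 to 1.93 for Ccr7 and -0.80 to 1.72 for Cx3cr1 in CD4 conventional T, -1.05 to 0.31 for Cx3cr1 in NK-like, -0.43 to 1.85 for Ccr1 and -0.95 to 1.37 for Cx3cr1 in B-like, -0.48 to 0.13 for Cx3cr1 in neutrophil-like, -0.18 to 0.069 for Ccr2 and -0.16 to 1.05 for Ccr7 in conventional dendritic-like cells, and -1.87 to 0.46 for Ccr9 by clone size.

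Thinned to 2000 in place of 1000 UMIs, the mean share of cells with a UMI was 68.4% in place of 51.7% for Ccr1 in neutrophil-like, 60.003% in place of 40.6% for Ccr2 and 16.1% in place of 9.09% for Cx3cr1 in monocyte/macrophage-like, and 63.6% in place of 36.1% for Ccr9 in plasmacytoid dendritic-like cells. Cell number limited Treg-like and plasmacytoid dendritic-like cells, which had too few cells in some mice for a fit, and depth limited receptors near 1 CPM in a class.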

Other observations

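T cells with UMIs of both Cd4 and Cd8 genes, or of neither, lay outside the CD8, CD4 conventional and Treg-like classes. Among them were 25 and 40 cells of the knockout mice and 100 and 143 of the control mice from the sub-cluster behind the Treg-like class. In them Ccr8 was at 246 and 331 CPM in knockout against 819 and 481 CPM in control mice. Ccr9 was at 0 and 21.0 CPM in knockout against 118 and 199.9 CPM in control mice. For both receptors the knockout mice were lower, the same order as in the Treg-like class. These cells share a sub-cluster and the mice with that class and differ from it by the Cd4 and Cd8 UMIs seen, so they are not separate support. In NKT-like sub-clusters Ccr8 was at 7.13 and 6.80 CPM in knockout against 0 and 53.7 CPM in control mice, where control mouse 2 stood apart.

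Among NK-like cells, clusters 17 and 11 differed in several receptors. Ccr7 was at 88.0 and 62.4 CPM in knockout against 27.6 and 13.5 CPM in control mice in cluster 17 and at 13.02 and 12.3 CPM in knockout against 0 and 17.1 CPM in control mice in cluster 11. Over the whole NK-like class, cells with a B marker UMI held 96 of 167 and 96 of 132 Ccr7 UMIs in the knockout mice. In the control mice they held 46 of 77 and 4 of 21. Their part in the difference between the clusters was not tested. Cx3cr1, known from mature NK cells, was at 27.0 and 12.95 CPM in knockout against 21.5 and 10.8 CPM in control mice in cluster 17 and at 3.37 and 2.85 CPM in knockout against 0 and 0 CPM in control mice in cluster 11. Ccr8 was higher in cluster 11, at 6.75 and 7.11 CPM in knockout against 18.4 and 65.5 CPM in control mice, than in cluster 17, at 0 and 1.18 CPM in knockout against 1.08 and 3.60 CPM in control mice. Cluster 17 is led by Klra4, Cma1 and Klra8. Cluster 11 is a T-like cluster, of which the NK-like class took the T sub-clusters 4, led by Klrb1b, Gzmc and Cd63, and 13, led by Ncr1, Klrb1b and Klrb1a. The NK-like class had 313 of 742 and 354 of 823 cells in the knockout mice and 633 of 699 and 243 of 333 in the control mice in cluster 17. These levels are given as a description, with no test between clusters.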
